A study of Mus musculus with 15 samples.

Results

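The matrix metalloproteinase (MMP) genes and the genes of their tissue inhibitors (TIMPs) were followed across 6 genotypes of mouse prostate organoids. The 10 genes were taken by name, with earlier results of these data known. They are the 7 MMP genes Mmp2, Mmp3, Mmp7, Mmp9, Mmp10, Mmp13 and Mmp14, and the 3 inhibitor genes Timp1, Timp2 and Timp3. All 10 are among the 21886 genes of the deposited table of RPKM (reads scaled to gene length and library total) and among the 14301 genes of the deposited table of counts. RNA was sequenced from prostate epithelial cells of C57BL/6 mice grown as organoids, which are epithelial cultures that form hollow, gland-like structures in a gel. Of the 15 samples of the series, 12 are RNA libraries, and the 3 chromatin samples were not analysed here.

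The first 4 groups were from 3-month-old mice and the other 2 from 2-month-old mice. Every library, controls included, also carried a further engineered allele (+/- in the first 4 groups, -/- in the other 2), so no group is wild type throughout. The control group had no other alteration. The Setd2 null group was Setd2PC-/-, the Ezh2 null group Ezh2PC-/- and the double null group Setd2PC-/-;Ezh2PC-/-. The other 2 groups had Ezh2 unaltered (here Ezh2 wild type) or Ezh2K735R (here Ezh2 K735R, with an arginine in place of a lysine of the protein). The labels do not spell out PC or name the driver of the deletions. There were 2 libraries per group. Libraries of the first 4 groups were equal-mass RNA pools of 3 biological replicates, and for the last 2 groups no pool size is given, so p-values measure the spread between these libraries. Levels were not compared between the tables, which differ in the further allele, age and unit.

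MMPs are zinc-dependent proteases, most of them secreted as inactive proenzymes, that cleave components of the extracellular matrix and many surface and secreted proteins. TIMPs bind the active site of MMPs and block it, so the balance of both sets how much matrix is cut around a cell. In glandular epithelium Mmp7 is the best known member, while Mmp2 is best known from stromal cells. Ezh2 is the methyltransferase of Polycomb repressive complex 2, which places the histone mark H3K27me3, and Setd2 places H3K36me3.

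Library totals on listed genes, recovered from the RPKM values, ran from 29686148 to 34880981 reads in control and Setd2 null and from 46915840 to 54208536 in Ezh2 null and double null, so depth moved with Ezh2 deletion; count totals ran from 28831228 to 37482322. Means of the targeted genes were lower where the labels place a deletion, but not every difference from control passed. Setd2 had 16.5 ± 0.614 RPKM in control and 9.51 ± 1.07 in Setd2 null (SD, n = 2; limma, adjusted p = 0.0563), and Ezh2 had 20.1 ± 1.04 RPKM in control and 12.7 ± 1.59 in Ezh2 null (limma, adjusted p = 0.00414). In double null, Setd2 had 8.26 ± 1.03 RPKM (against control, limma, adjusted p = 0.000642) and Ezh2 15.4 ± 1.70 (0.0514). The cells carried their epithelial labels, with 10 or 11 of 11 epithelial markers at 1 RPKM or CPM or more in each of the 12 libraries. Among the RPKM libraries, summed endothelial markers were at most 3.27 RPKM. The 12 immune markers summed to 20.3 to 40.3 RPKM, with Ptprc, the marker of all leukocytes, at most 0.0582 RPKM; 1 was at 1 RPKM or more in each control and Setd2 null library and 4 or 5 in those with Ezh2 deleted. Of these markers, Cd68 was lower in Ezh2 null (4.24 and 4.42 RPKM) than in control (21.8 and 24.6). Lyz2 went from 0 in both controls to 7.69 and 8.20 RPKM in Ezh2 null, and Ly6g from 0.247 and 0.281 to 5.67 and 4.58, and the part of these markers in the member levels was not tested. Among the count libraries, the Ezh2 wild-type libraries stood apart from each other: 5.93% of genes with a mean of at least 1 CPM differed at least 2-fold between them, against 0.110% to 1.76% in the other 5 groups.

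The MMP genes sit in a cluster and at scattered places. Mmp13 (chr9:7272514-7283333, plus strand, mm10), Mmp3 (chr9:7445822-7455975), Mmp10 (chr9:7502342-7510242) and Mmp7 (chr9:7692090-7699585) belong to a group of 10 MMP genes within 427.1 kilobases of chromosome 9. The other members are single genes: Mmp2 (chr8:92827291-92853421), Mmp9 (chr2:164940744-164955850), Mmp14 (chr14:54431598-54442456), Timp1 (chrX:20870166-20874737), Timp2 (chr11:118301061-118355411, minus strand) and Timp3 (chr10:86300412-86349505). Timp1 and Timp3 lie on the strand opposite to Syn1 and Syn3, whose spans overlap theirs. Both synapsin genes stayed at or below 0.420 RPKM in every one of the 8 libraries of the first table. Timp2 overlaps BC100451, which lies on the same strand and stayed at or below 0.608 RPKM. Whether the counting used strand is not given in the sources used here, so reads of a gene and its opposite-strand partner cannot be told apart. Strand could not separate Timp2 from BC100451 in any case.

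The 4 cluster members are shown with the 250 bases before their start. They were chosen because, with Setd2 intact, 3 of them (Mmp13, Mmp3 and Mmp10) fell on Ezh2 loss and the remaining one, Mmp7, rose. Windows are those of RefSeq on GRCm38.p6, matched for 8 of the 10 genes; Mmp2 and Mmp9 were not matched. Each window is printed 5′ to 3′ on the plus strand, up to the base before the start. Capitals mark TGANTCA, a pattern that includes the letters bound by AP-1 factors (Fos and Jun proteins), and TATAAA, the letters of a TATA box.
Mmp13, chr9:7272264-7272513: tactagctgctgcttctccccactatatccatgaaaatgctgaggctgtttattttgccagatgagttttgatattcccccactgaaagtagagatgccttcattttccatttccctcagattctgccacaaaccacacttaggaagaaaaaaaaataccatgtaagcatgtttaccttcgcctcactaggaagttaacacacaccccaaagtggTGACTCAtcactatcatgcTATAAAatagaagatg
Mmp3, chr9:7445572-7445821: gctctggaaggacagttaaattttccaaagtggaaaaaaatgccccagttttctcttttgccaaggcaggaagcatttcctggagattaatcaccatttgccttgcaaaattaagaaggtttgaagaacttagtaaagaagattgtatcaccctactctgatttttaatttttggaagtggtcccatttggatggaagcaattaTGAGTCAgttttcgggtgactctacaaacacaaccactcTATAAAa
Mmp10, chr9:7502092-7502341: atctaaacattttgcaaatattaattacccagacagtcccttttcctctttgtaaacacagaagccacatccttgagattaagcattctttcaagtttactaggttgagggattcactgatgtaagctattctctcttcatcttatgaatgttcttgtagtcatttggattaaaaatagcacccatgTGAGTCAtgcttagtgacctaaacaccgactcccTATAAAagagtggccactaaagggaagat
Mmp7, chr9:7691840-7692089: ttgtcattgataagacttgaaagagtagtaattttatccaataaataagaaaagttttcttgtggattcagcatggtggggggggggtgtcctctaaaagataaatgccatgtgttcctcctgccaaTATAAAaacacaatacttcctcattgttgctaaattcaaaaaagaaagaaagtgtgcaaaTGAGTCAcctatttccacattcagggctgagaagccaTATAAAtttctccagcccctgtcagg
The AP-1 letters begin 35 bases before the start in Mmp13, 46 in Mmp3, 63 in Mmp10 and 63 in Mmp7, and each of the 4 windows also holds TATAAA. The nearest TATAAA begins 16 bases before the start in Mmp13, 7 in Mmp3, 29 in Mmp10 and 26 in Mmp7. Searched on both strands, with no overlap between the motifs, TGANTCA is in 6.75% of all 32851 RefSeq windows of this length, TATAAA in 12.4% and both in 1.21%. The windows of Mmp14, Timp1, Timp2 and Timp3, and a later start of Mmp7, hold neither. The letters AGGAAG, named PEA3, were searched as well. They are in 7 of the 9 member windows, all but those of Mmp10 and Timp2, beside 29.5% of all windows. Of the 7 windows of the other cluster genes, which were expressed at low levels, 4 hold TGANTCA and 3 hold TATAAA. With Setd2 intact, Mmp7 rose with Ezh2 loss, while Mmp13, Mmp3 and Mmp10 fell. With Setd2 deleted Mmp7 was lower too (log2 fold change -0.37), a call that did not hold in every alternative. The part of these letters in the member levels was not tested.

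In control organoids Mmp7 was the most abundant of the 10 genes, at 952 and 975 RPKM. Mmp9, a gelatinase, followed at 274 and 366 RPKM, and Mmp14, the membrane-anchored MMP that activates proMmp2, at 156 and 164. Timp1 (97.2 and 82.8 RPKM) and Timp2 (80.5 and 85.1) came next and overlapped each other. All other neighbours in the order were separate in both control libraries: the stromelysin Mmp10 at 36.1 and 39.6 RPKM, the collagenase Mmp13 at 27.2 and 26.1, the stromelysin Mmp3 at 21.0 and 23.2, and Timp3, the inhibitor that binds to matrix, at 11.7 and 11.6. Mmp2, the other gelatinase, was last at 0.412 and 0.246 RPKM, from 40 and 24 reads. The order was other in Ezh2 null organoids, where Mmp9, Mmp10 and Mmp13 were the 3 lowest and Timp2 and Mmp14 followed Mmp7.

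**Figure D1:**
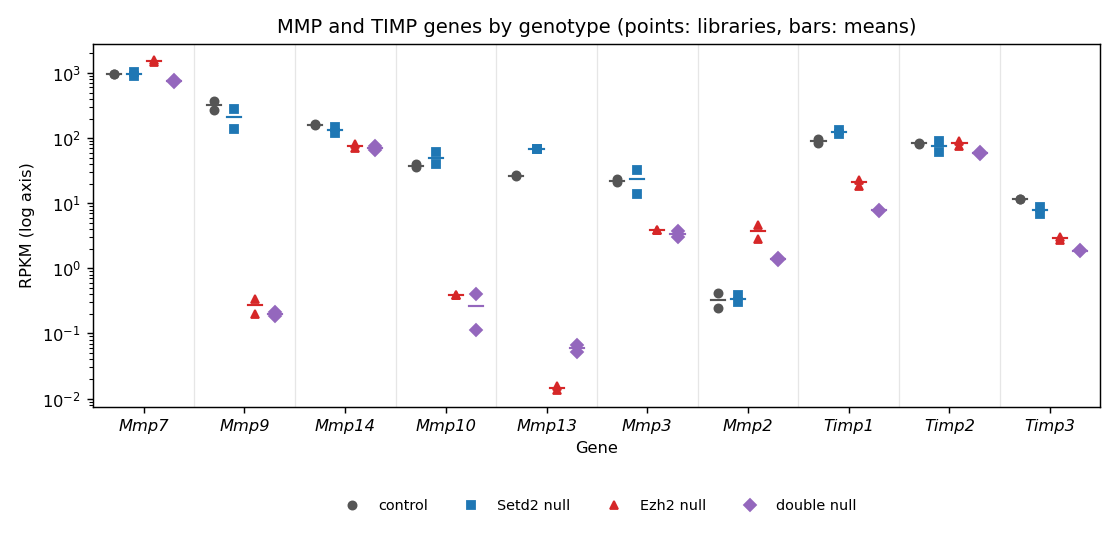
RPKM on a log axis of the 10 MMP and TIMP genes in the 8 libraries of the first 4 groups, with points for libraries and short bars for the group means (n = 2). Mmp9, Mmp10 and Mmp13 are at 26.1 RPKM or more in every control and Setd2 null library and at 0.406 or less in every library with Ezh2 deleted.

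Ezh2 deletion with Setd2 intact lowered 7 of the 10 genes and raised 2. Mmp9, Mmp10 and Mmp13 went from 26.1 RPKM or more to 0.394 or less, Mmp3, Mmp14, Timp1 and Timp3 fell less far, Mmp7 and Mmp2 rose, and Timp2 was not called. The call is limma's test on log2(RPKM + 1) with Benjamini-Hochberg adjustment over 11338 genes at 0.05, two-sided. In this comparison 56.6% of all genes tested were called, 36.1% as higher and 20.5% as lower, so a call by itself sets no gene apart. Mmp9, Mmp10 and Mmp13 passed the filter on low values (a mean of at least 1 RPKM) only through control and Setd2 null. Mmp2 passed it only through the libraries with Ezh2 deleted, so the direction of these calls was tied to the filter. Groups did not overlap for 9 of the 10 genes, beside 81.4% of all genes. The median log2 fold change of the 10 genes was -1.88, beside 0.18 for all genes. That all-gene median was 0.02 after quantile normalization, and calls then split 3190 higher to 3157 lower, in place of 4096 to 2320.

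The sharpest falls were those of a gelatinase, a stromelysin and a collagenase. Mmp9 had 274 and 366 RPKM in control and 0.201 and 0.340 in Ezh2 null (log2 fold change -7.97 ± 0.29 SE, limma, adjusted p = 2.18e-07). Mmp10 had 36.1 and 39.6 RPKM in control and 0.394 and 0.388 in Ezh2 null (log2 fold change -4.80 ± 0.19, limma, adjusted p = 8.20e-08). Mmp13 had 27.2 and 26.1 RPKM in control and 0.0134 and 0.0157 in Ezh2 null (log2 fold change -4.77 ± 0.11, limma, adjusted p = 6.02e-09). The libraries of the compared groups were far apart for all 3 genes. The pseudocount of 1 shrinks such falls, and the recovered reads give their size without it. Mmp13 had 4327 reads over both control libraries and 4 over both Ezh2 null libraries, which relative to the library totals is 1839-fold lower, with a 95% exact interval of 718 to 6753 that covers counting error only. Mmp9 was 1208-fold lower (986 to 1496) and Mmp10 96.8-fold lower (76.4 to 124), counted the same way. These 3 genes passed the filter on low values through control and Setd2 null, in which they were high.

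The second stromelysin, the membrane-type MMP and the inhibitors moved less. Mmp3 had 21.0 and 23.2 RPKM in control and 3.83 and 3.92 in Ezh2 null (log2 fold change -2.24 ± 0.32, limma, adjusted p = 0.000740). Mmp14 had 156 and 164 RPKM in control and 70.8 and 79.8 in Ezh2 null (log2 fold change -1.08 ± 0.15, limma, adjusted p = 0.000216). Both genes kept more than 3 RPKM after Ezh2 loss, while Mmp9, Mmp10 and Mmp13 were below 0.5. Timp1, a secreted inhibitor that many cells induce on stimulation, had 97.2 and 82.8 RPKM in control and 18.7 and 23.0 in Ezh2 null (log2 fold change -2.06 ± 0.15, limma, adjusted p = 3.11e-06). Timp3 had 11.7 and 11.6 RPKM in control and 3.06 and 2.72 in Ezh2 null (log2 fold change -1.71 ± 0.14, limma, adjusted p = 7.34e-06). Timp2, which besides blocking MMPs takes part in the activation of proMmp2 by Mmp14, was the exception among the inhibitors. It had 80.5 and 85.1 RPKM in control and 74.5 and 91.5 in Ezh2 null, and the groups overlapped (log2 fold change 0.00 ± 0.18, limma, adjusted p = 0.988).

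Mmp7 and Mmp2 were higher in Ezh2 null than in control. Mmp7, the matrilysin of glandular epithelium, had 952 and 975 RPKM in control and 1558 and 1462 in Ezh2 null (log2 fold change 0.65 ± 0.14, limma, adjusted p = 0.00365). Its call ended under quantile normalization (adjusted p = 0.0543, in limma), while adjusted p ran from 0.00106 to 0.0543 over all alternatives. Mmp2 had 0.412 and 0.246 RPKM in control and 2.80 and 4.61 in Ezh2 null (log2 fold change 1.80 ± 0.18, limma, adjusted p = 2.70e-05). From recovered reads it was 11.05-fold higher (8.59 to 14.4), and it passed the filter through the libraries with Ezh2 deleted. The summed stromal markers were higher in the same libraries, though not every marker was: the summed level of the 10 stromal markers was 8.05 to 13.6 RPKM in control and Setd2 null and 29.3 to 34.5 RPKM in Ezh2 null and double null. Of these markers, 1 to 3 were at 1 RPKM or more in the former libraries and 4 in the latter, and Lum was at 0 in all 4 libraries of control and Setd2 null. Of the 5 stromal markers that passed the filter, 4 were called as higher in Ezh2 null and Postn as lower (all genes: 36.1% and 20.5%). Col1a1, Col1a2 and Col3a1 passed the filter only through the libraries with Ezh2 deleted, and Postn only through control and Setd2 null. The direction of those calls was thus tied to the filter. Dcn, the largest part of the sum, had 1.30 and 1.06 RPKM in control and 18.8 and 12.6 in Ezh2 null, while Postn had 8.37 and 6.64 in control and 0.212 and 0.223 in Ezh2 null. Acta2, which did not pass the filter, had 2.00 and 0.672 RPKM in control and 0.0889 and 0.223 in Ezh2 null, and Pdgfra and Pdgfrb stayed below 0.5 RPKM throughout. The part of these markers in the level of Mmp2 was not tested. In bulk RNA such as this, fewer cells that express a gene and less RNA per cell cannot be told apart.

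Where Setd2 was also deleted, Ezh2 loss gave 9 calls among the 10 genes, 1 higher and 8 lower. Of all genes, 55% were called, 35.6% as higher and 19.4% as lower. The direction of the calls on Mmp9, Mmp10, Mmp13 and Mmp2 was again tied to the filter. The double null libraries were set against the Setd2 null libraries here, so this comparison shares no library with Ezh2 null against control. The 2 comparisons may still not be independent. Deviations from the group means correlated by 0.933 between same-numbered libraries of Ezh2 null and double null. Mmp9 had 140 and 284 RPKM in Setd2 null and 0.184 and 0.214 in double null (log2 fold change -7.39 ± 0.29, limma, adjusted p = 3.85e-07). Mmp10 had 60.2 and 39.7 RPKM in Setd2 null and 0.406 and 0.114 in double null (log2 fold change -5.32 ± 0.19, limma, adjusted p = 5.96e-08). Mmp13 had 68.9 and 68.3 RPKM in Setd2 null and 0.0527 and 0.0663 in double null (log2 fold change -6.04 ± 0.11, limma, adjusted p = 4.08e-09). All 3 genes fell below 0.5 RPKM in this background too. Mmp3 fell from 32.6 and 14.02 RPKM to 3.78 and 3.02 (log2 fold change -2.36 ± 0.32), Mmp14 from 120 and 150 to 66.4 and 74.8 (-0.92 ± 0.15), and Timp3 from 6.78 and 8.72 to 1.87 and 1.89 (-1.60 ± 0.14). Timp1 fell further than in the Setd2-intact background, from 135 and 116 RPKM to 7.82 and 7.68 (log2 fold change -3.85 ± 0.15, limma, adjusted p = 7.61e-08).

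Mmp2, Mmp7 and Timp2 need separate mention in this background. Mmp2 rose from 0.302 and 0.385 RPKM to 1.33 and 1.46 (log2 fold change 0.83 ± 0.18, limma, adjusted p = 0.00321). Mmp7 was lower in double null, at 780 and 720 RPKM, than in Setd2 null, at 1037 and 907 (log2 fold change -0.37 ± 0.14, limma, adjusted p = 0.0490). The call on Mmp7 was at the threshold, ended without Setd2 null replicate 1, without either double null library and when only the groups compared were fitted, and had adjusted p from 0.00446 to 0.236 over the alternatives. Timp2 had 62.0 and 89.2 RPKM in Setd2 null and 56.1 and 62.2 in double null, with overlapping groups and no call (log2 fold change -0.33 ± 0.18, limma, adjusted p = 0.153). With the replicate number as a block its adjusted p was 0.0463, and over all alternatives it ran from 0.0192 to 0.735.

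**Figure D2:**
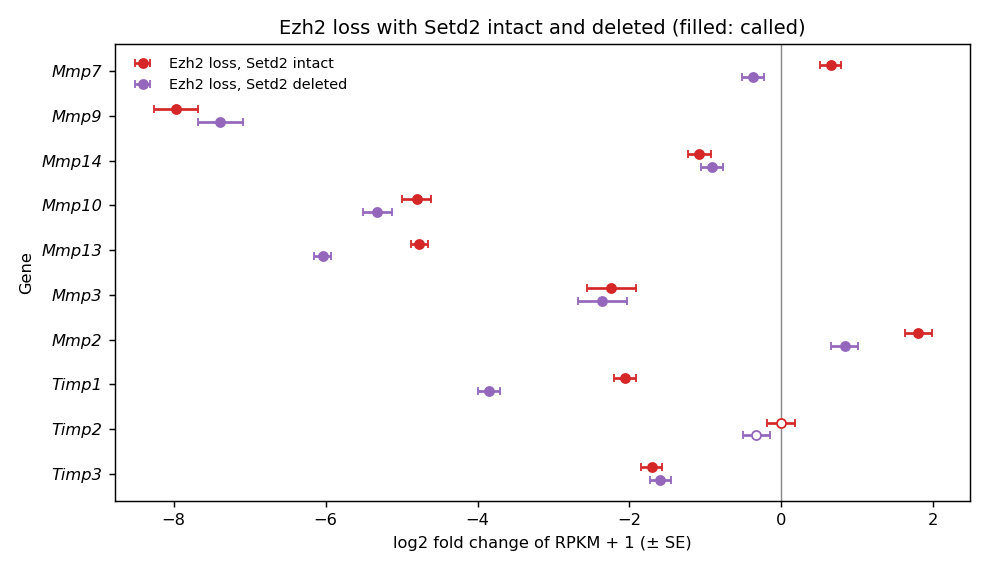
Log2 fold change of RPKM + 1 (± SE) of the 10 genes for Ezh2 null against control (Ezh2 loss, Setd2 intact) and for double null against Setd2 null (Ezh2 loss, Setd2 deleted), with filled points for calls at an adjusted p under 0.05 in limma. Mmp7 lies on opposite sides of 0 in the 2 backgrounds, at 0.65 and -0.37, and Timp1 lies further left with Setd2 deleted, at -3.85 in place of -2.06.

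Deletion of Setd2 with Ezh2 intact changed 1 of the 10 genes, Mmp13, beside 1.07% of all genes tested. Mmp13 had 27.2 and 26.1 RPKM in control and 68.9 and 68.3 in Setd2 null, a rise of 2.52-fold on the RPKM + 1 scale (log2 fold change 1.33 ± 0.11, limma, adjusted p = 0.00109). Both Setd2 null libraries were above both controls, the call held in every alternative, and its adjusted p ran from 0.000623 to 0.0168. Mmp13 codes for a collagenase that also cleaves several other matrix proteins. With the replicate number as a block, 231 genes in place of 121 were called, and Mmp13 was still the 1 member among them.

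The other 9 genes did not pass in Setd2 null against control. Timp1 had 97.2 and 82.8 RPKM in control and 135 and 116 in Setd2 null, without overlap (log2 fold change 0.48 ± 0.15, limma, adjusted p = 0.224). Timp3 had 11.7 and 11.6 RPKM in control and 6.78 and 8.72 in Setd2 null, also without overlap (log2 fold change -0.54 ± 0.14, limma, adjusted p = 0.126). Of the 10 genes, 5 had groups that did not overlap, beside 42.2% of all genes tested. Mmp9 had 274 and 366 RPKM in control and 140 and 284 in Setd2 null (a log2 fold change of -0.66 ± 0.29, limma, adjusted p = 0.440). The 2 Setd2 null libraries differed 2.03-fold for Mmp9, and without Setd2 null replicate 2 it was called as lower, with an adjusted p of 0.0474 in limma against a range of 0.0474 to 1.0 over its alternatives. Mmp3 differed 2.32-fold between the same 2 libraries, at 32.6 and 14.02 RPKM. Mmp7, at 1037 and 907 RPKM, lay on both sides of the control libraries.

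Set against Ezh2 null, the double null libraries had lower levels of 3 genes, Mmp7, Timp1 and Mmp2, beside 6.49% of all genes called, 2.7% as lower. Mmp7 had 1558 and 1462 RPKM in Ezh2 null against 780 and 720 in double null (log2 fold change -1.01 ± 0.14, limma, adjusted p = 0.00255). Timp1 had 18.7 and 23.0 RPKM in Ezh2 null against 7.82 and 7.68 in double null (log2 fold change -1.31 ± 0.15, limma, adjusted p = 0.000656). These 2 calls held in every alternative run. Mmp2 had 2.80 and 4.61 RPKM in Ezh2 null against 1.33 and 1.46 in double null (log2 fold change -0.95 ± 0.18, limma, adjusted p = 0.0118). Its call ended when only the groups compared were fitted (adjusted p = 0.103 in limma) and without double null replicate 1 (0.0521), the range over alternatives being 0.00171 to 0.103. The summed stromal markers, 34.5 and 33.1 RPKM in Ezh2 null against 33.9 and 29.3 in double null, combine unlike markers. Col3a1 was lower in double null (2.88 and 3.08 RPKM) than in Ezh2 null (5.83 and 7.44; limma, adjusted p = 0.00274), as was Col1a2 (2.87 and 2.98 against 5.14 and 6.26; adjusted p = 0.00790), whose call ended in edgeR on recovered reads and with only the groups compared, among others. Dcn had 25.5 and 20.3 against 18.8 and 12.6 and was not called. The part of these markers in the lower Mmp2 was not tested. Mmp13 had 2 and 2 reads in Ezh2 null against 7 and 9 in double null, a ratio of 4.12 with a 95% exact interval of 1.33 to 16.9 for counting error only, and it was not called (log2 fold change 0.06 ± 0.11, limma, adjusted p = 0.936). Mmp3, Mmp9, Mmp10, Mmp14, Timp2 and Timp3 were not called either.

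Against control, the double null group had 9 of the 10 genes called, 1 higher and 8 lower. Of all genes, 54.2% were called, 34.2% higher and 20% lower. Here too, the direction of the calls on Mmp9, Mmp10, Mmp13 and Mmp2 was tied to the filter. This comparison shares its control libraries with Ezh2 null against control and its double null libraries with the comparisons above. Timp1 was 10.4-fold lower on the RPKM + 1 scale (log2 fold change -3.37 ± 0.15, limma, adjusted p = 1.71e-07), with 97.2 and 82.8 RPKM in control and 7.82 and 7.68 in double null. Timp3 had 11.7 and 11.6 RPKM in control and 1.87 and 1.89 in double null (log2 fold change -2.14 ± 0.14, limma, adjusted p = 1.84e-06). Timp2 had 80.5 and 85.1 RPKM in control and 56.1 and 62.2 in double null (log2 fold change -0.48 ± 0.18, limma, adjusted p = 0.0478). All 3 inhibitors were thus lower in both double null libraries than in both controls. The call on Timp2 ended without any 1 of the 4 libraries compared and with no filter on low values, and its adjusted p ran from 0.00481 to 0.185. Mmp7, at 952 and 975 RPKM in control and 780 and 720 in double null, was not called (log2 fold change -0.36 ± 0.14, limma, adjusted p = 0.0550). It was called with the replicate number as a block (adjusted p = 0.0368 in limma) and in 5 other settings, and the range over alternatives was 0.00236 to 0.255.

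The interaction term asks whether Ezh2 loss acted differently with Setd2 deleted than with Setd2 intact. It was called for 3 of the 10 genes, all lower, beside 2.59% of all genes called and 0.9% called as lower. Timp1 fell by 2.06 on the log2 scale with Setd2 intact and by 3.85 with Setd2 deleted, a difference of -1.79 ± 0.21 (limma, adjusted p = 0.00203), and this call held in every alternative, with adjusted p up to 0.0158. Mmp7 rose by 0.65 with Setd2 intact and fell by 0.37 with Setd2 deleted, a difference of -1.02 ± 0.20 (limma, adjusted p = 0.0290). The Mmp7 call ended without any single library of control, Ezh2 null or double null, with adjusted p between 0.0721 and 0.174 in those fits and between 0.0225 and 0.174 over all alternatives. For Mmp13 the difference was -1.27 ± 0.16 (limma, adjusted p = 0.00311), but it rests on the pseudocount. With a pseudocount of 0.1 its adjusted p was 0.118, and edgeR on the recovered reads gave 0.58 with an adjusted p of 0.960, so on a ratio scale no difference was shown. Its adjusted p ran from 0.00324 to 0.960 over the alternatives. The remaining 7 genes were not called. Mmp2 came nearest, with a difference of -0.97 ± 0.25 (limma, adjusted p = 0.0981, from 0.0135 to 0.346 over the alternatives), and without Ezh2 null replicate 1 it was called.

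Summed over the 7 MMP genes, the control libraries held 1466 and 1594 RPKM and the Setd2 null libraries 1460 and 1463. The Ezh2 null libraries held 1636 and 1551 RPKM, and the double null libraries 852 and 799. Mmp7 alone made up 61.2% to 71.1% of that sum in control and Setd2 null and 90.0% to 95.2% in Ezh2 null and double null. Without Mmp7 the sum of the other 6 genes was 422 to 619 RPKM in control and Setd2 null and 72.2 to 89.1 RPKM in Ezh2 null and double null. The sum of the 3 TIMP genes ran from 179 to 214 RPKM where Ezh2 was intact, and was 96.3 and 117 for Ezh2 null and 65.8 and 71.7 for double null. The ratio of summed MMP to summed TIMP RPKM ran from 6.84 to 8.88 where Ezh2 was intact, and was 16.99 and 13.2 for Ezh2 null and 12.96 and 11.1 for double null. Without Mmp7 the ratio went the other way, from 2.07 to 3.45 in control and Setd2 null to 0.760 to 1.11 with Ezh2 deleted. These sums are of transcripts and carry no test.

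**Figure D3:**
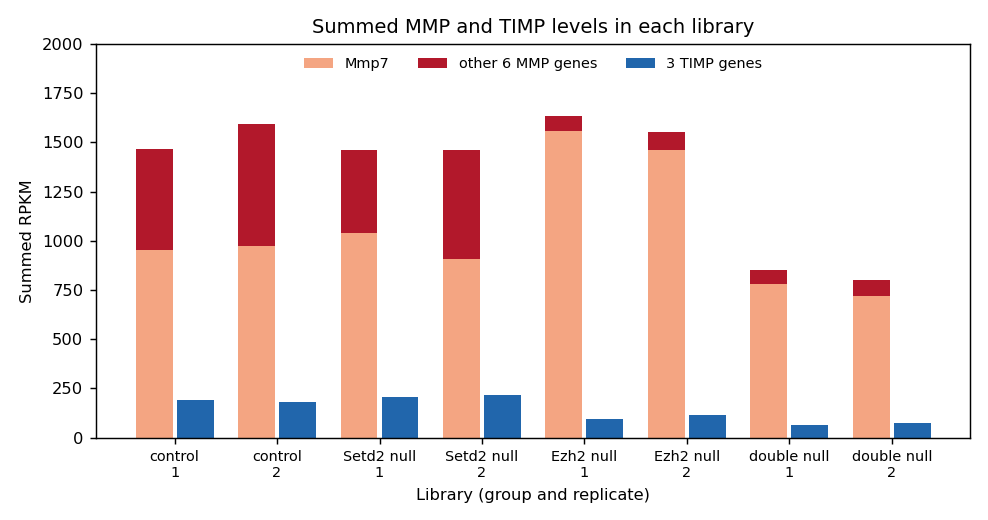
Summed RPKM in each of the 8 libraries, with Mmp7 and the other 6 MMP genes stacked in the left bar and the 3 TIMP genes in the right bar. The part of the other 6 MMP genes is 422 RPKM or more in control and Setd2 null and 89.1 or less in Ezh2 null and double null.

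The cluster on chromosome 9 was uneven along its length. Its ends, Mmp13 and Mmp7, went in opposite directions on Ezh2 loss with Setd2 intact. Between them, the 6 cluster genes that are no members were low, and none passed the filter of a mean of 1 RPKM. Mmp1b, a collagenase gene close in sequence to its neighbour Mmp1a, had 0.512 and 0.642 RPKM in control and 2.79 and 0.7998 in Setd2 null. With Ezh2 deleted it had 0.0180 and 0.0105 RPKM, and with both deleted 0.171 and 0.0986. Mmp8, the neutrophil collagenase, had 0.457 and 0.710 RPKM in control and 0.513 and 0.403 in Ezh2 null, with overlapping libraries. Mmp1a had 0.294 and 0.276 RPKM in control and 0.0356 and 0.0208 in Ezh2 null. Mmp20 had 0.614 and 0.441 in control and 0.209 and 0.231 in Ezh2 null. Mmp12 and Mmp27 overlapped between these groups, at 0.0874 RPKM or less. How the authors divided reads between near copies such as Mmp1a and Mmp1b is not given in the sources used here.

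**Figure D4:**
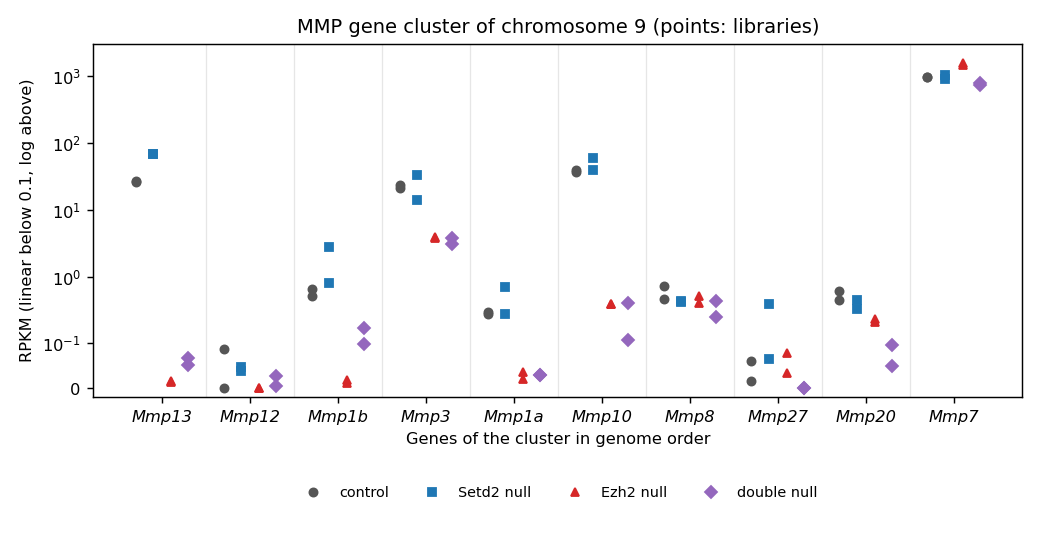
RPKM of the 10 genes of the chromosome 9 MMP cluster in genome order, on an axis that is linear below 0.1 and logarithmic above, with a point for each of the 2 libraries of the 4 groups. Mmp13, Mmp3 and Mmp10 are lower in every library with Ezh2 deleted than in any other, and Mmp7 at the end of the cluster is highest in Ezh2 null, at 1558 and 1462.

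The list of 16 other MMP genes holds these 6 and 10 outside the cluster. Of the latter, 5 passed the filter, and 3 of these were called in Ezh2 null against control, beside 56.6% of all genes. Mmp23 had 3.53 and 3.95 RPKM in control and 0.202 and 0.424 in Ezh2 null (log2 fold change -1.86 ± 0.15, limma, adjusted p = 6.33e-06). Mmp11, known as stromelysin 3, had 3.14 and 3.21 RPKM in control and 1.09 and 1.37 in Ezh2 null (log2 fold change -0.91 ± 0.12, limma, adjusted p = 0.000162). Mmp11 was also the 1 gene of this list called in Setd2 null, at 1.45 and 1.46 RPKM (log2 fold change -0.77 ± 0.12, limma, adjusted p = 0.0206). In Setd2 null Mmp11 was no longer called with quantile normalization (adjusted p = 0.0662 in limma), with only the groups compared, with edgeR on recovered reads and without any 1 of the 4 libraries compared, and its adjusted p ran from 0.0219 to 0.178 over the alternatives. Mmp28 was called as higher in Ezh2 null, at 3.88 and 3.90 RPKM against 2.67 and 2.52 in control, but this call ended in 8 alternatives, quantile normalization, median-ratio scaling and the loss of any 1 library compared among them. Mmp15, a membrane-type MMP like Mmp14, had 107 and 133 RPKM in control and 86.7 and 122 in Ezh2 null and was not called. The fourth inhibitor gene, Timp4, went against Timp1 and Timp3: it had 0.600 and 0.510 RPKM in control and 3.80 and 4.75 in Ezh2 null (log2 fold change 1.76 ± 0.15, limma, adjusted p = 1.02e-05). Timp4 passed the filter on low values only through the libraries with Ezh2 deleted, and Mmp23 only through control and Setd2 null.

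In organoids with Ezh2 K735R, set against Ezh2 wild type with the same further allele, the main test called none of the 9 members it could test. That test is edgeR's quasi-likelihood test on counts of 13203 genes, and it called 0.00757% of them, which is 1 gene. At an unadjusted p under 0.05 it had 5 of the 9 members and 1220 genes (9.24%), DESeq2 called 3 members and 285 genes, and limma on log2 CPM called no member. Levels here are CPM (counts scaled to TMM-adjusted library totals). The wild-type libraries themselves differed widely for several members.

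Mmp9 had 4.28 and 66.9 CPM in wild type and 107 and 106 in K735R, so the 2 wild-type libraries were 15.6-fold apart (log2 fold change 1.58 ± 1.14, edgeR, adjusted p = 0.722). Mmp13 had 1.99 and 8.34 CPM in wild type and 26.6 and 37.8 in K735R (log2 fold change 2.63 ± 0.69, edgeR, adjusted p = 0.423). Mmp10 had 6.17 and 16.5 CPM in wild type and 34.3 and 37.1 in K735R (log2 fold change 1.65 ± 0.47, edgeR, adjusted p = 0.446). For all 3 genes, and for Mmp3, both K735R libraries were above both wild-type libraries. Mmp3 had 6.30 and 11.5 CPM in wild type and 23.9 and 29.3 in K735R (log2 fold change 1.57 ± 0.32, edgeR, adjusted p = 0.340). Mmp7 had 1716 and 1616 CPM in wild type and 1097 and 1258 in K735R, both lower (log2 fold change -0.51 ± 0.14, edgeR, adjusted p = 0.423). Timp3 had 28.2 and 36.4 CPM in wild type and 9.02 and 19.8 in K735R, also both lower (log2 fold change -1.17 ± 0.40, edgeR, adjusted p = 0.514). The groups thus did not overlap for 6 of the 9 members tested, beside 42.4% of all genes tested.

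The other members overlapped between wild type and K735R or were too low. Timp1 had 7.66 and 27.1 CPM in wild type and 30.3 and 24.6 in K735R (log2 fold change 0.66 ± 0.60, edgeR, adjusted p = 0.786). Mmp14 had 568 and 828 CPM in wild type and 747 and 781 in K735R, and Timp2 had 413 and 624 in wild type and 414 and 426 in K735R. Mmp2 had 16 and 2 counts in wild type and 7 and 7 in K735R and did not pass the filter on low counts. Per kilobase, the order was again led by Mmp7, at a mean of 1494 CPM per kilobase in wild type and 1056 in K735R, with Mmp14 and Timp2 next.

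The result for K735R turned on the wild-type libraries. Without Ezh2 wild type replicate 1, edgeR called 6 members: Mmp3, Mmp9, Mmp10 and Mmp13 as higher and Mmp7 and Timp2 as lower in K735R. Mmp9 then had a log2 fold change of 0.68 (edgeR, adjusted p = 0.00381) and Mmp13 one of 1.95 (adjusted p = 0.00548). Without Ezh2 wild type replicate 2, edgeR called 7 members, with Mmp9 at 4.64 (adjusted p = 1.21e-07). In these fits the lone wild-type library is assumed to vary like the K735R libraries. The counts of all genes called were 644 and 1595 in those fits. DESeq2 on all 4 libraries called Mmp3 (adjusted p = 0.000726), Mmp10 (0.00993) and Mmp7 (0.0273). Over the alternatives, adjusted p ran from 0.000287 to 1.0 for Mmp3, from 3.15e-05 to 1.0 for Mmp10, from 0.00596 to 1.0 for Mmp7, from 1.21e-07 to 1.0 for Mmp9 and from 9.61e-05 to 1.0 for Mmp13. The wild-type libraries also differed in epithelial markers, with the basal keratin Krt5 at 3963 and 1661 CPM and the luminal keratin Krt8 at 1939 and 3653 CPM, and the part of this in the member values was not tested.

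**Figure D5:**
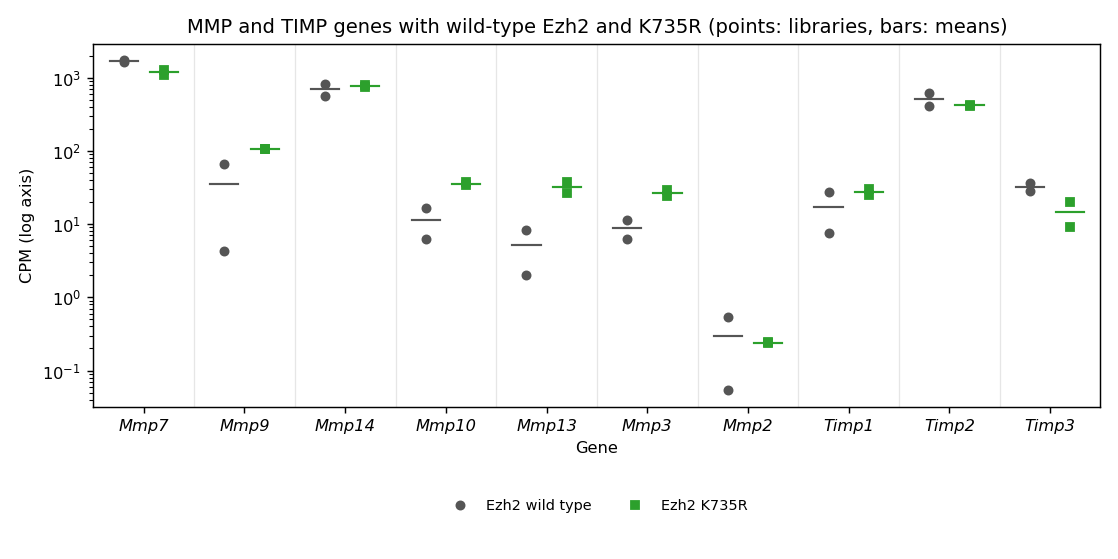
CPM on a log axis of the 10 MMP and TIMP genes in the 2 Ezh2 wild-type and the 2 Ezh2 K735R libraries, with points for libraries and short bars for means. The wild-type libraries lie 15.6-fold apart for Mmp9 and 4.19-fold apart for Mmp13, and the K735R libraries lie above both for Mmp3, Mmp9, Mmp10 and Mmp13.

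Genes with the most similar course were found by the smallest root mean square difference of centred log2(RPKM + 1) over the 8 libraries of the first 4 groups, as a description with no test. Nearest to Mmp9 were Tnc (0.81), Fn1 (1.16) and Cldn6 (1.52), and the mean level of Tnc was 313 RPKM in control and 288 with Setd2 deleted, 3.39 with Ezh2 deleted and 3.01 with both deleted. Mmp10 was nearest to Inhba (0.33), Col8a1 (0.39) and Antxr2 (0.40). Mmp13 was nearest to Col8a1 (0.58), Bst1 (0.60) and Antxr2 (0.65), so Mmp10 and Mmp13 had 2 nearest genes in common. Bst1 shared the higher level in Setd2 null, with means of 47.0 RPKM in control and 82.3 in Setd2 null. Nearest to Mmp7 were Enpp5 (0.11), Camk1 (0.12) and Mgst1 (0.15), and to Timp1 they were Glipr2 (0.32), Siglec15 (0.34) and Cald1 (0.36). Mmp14 had Pik3ip1, Ttyh2 and Pkd2 within 0.074, and Timp3 had Map1b, Dkk3 and Camk2n1 within 0.143. Mmp2 had Ripply3 (0.11), Ntn1 (0.13) and the collagen gene Col1a1 (0.15), the last a stromal marker at 0.467 and 0.704 RPKM in control and 3.29 and 5.33 in Ezh2 null. Mmp3 was nearest to Gabrp (0.25) and Timp2 to Gramd1a (0.08).

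The genes around MMP action were taken from lists fixed by name, also with earlier results of these data known. Of the 17 listed proteins that MMPs cut, most of them matrix proteins, Ezh2 loss with Setd2 intact lowered 13 and raised 2, beside 20.5% of all genes lower and 36.1% higher. The list includes the cell adhesion protein Cdh1, also counted above as an epithelial marker. The 2 raised were Col1a1 and Col3a1, also counted above as stromal markers, which passed the filter only through the libraries with Ezh2 deleted. The list's median log2 fold change was -1.42, beside 0.18 for all genes. Tnc, the adhesion-modulating tenascin C, had 316 and 310 RPKM in control and 3.31 and 3.47 in Ezh2 null (log2 fold change -6.16 ± 0.14, limma, adjusted p = 6.02e-09). Fn1, fibronectin, had 627 and 642 RPKM in control and 14.4 and 17.1 in Ezh2 null (log2 fold change -5.25 ± 0.24, limma, adjusted p = 1.92e-07). The laminin chains Lama3 and Lamb3 had log2 fold changes of -4.11 and -3.04. With Setd2 deleted, 12 of the 17 were lower and 2 higher, beside 19.4% and 35.6% of all genes.

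Of the 14 measured surface partners and activators of MMPs, 11 were lower and 2 higher in Ezh2 null than in control (all genes: 20.5% and 36.1%), with a median log2 fold change of -0.89. The integrin chain Itgav, which pairs to bind matrix, had 100 and 94.9 RPKM in control and 28.0 and 26.1 in Ezh2 null (log2 fold change -1.81 ± 0.14, limma, adjusted p = 4.77e-06). Cd44, a hyaluronan receptor that can hold Mmp9 at the surface, had 292 and 300 RPKM in control and 97.7 and 81.1 in Ezh2 null (log2 fold change -1.72 ± 0.19, limma, adjusted p = 5.50e-05). Lcn2, whose protein forms a complex with Mmp9 in humans, rose, from 561 and 553 RPKM to 3113 and 2985 (log2 fold change 2.45 ± 0.27, limma, adjusted p = 5.46e-05). Its level in double null was 890 and 819 RPKM (log2 fold change against Ezh2 null -1.83 ± 0.27, limma, adjusted p = 0.00311), a call that ended with quantile normalization (adjusted p = 0.0551 in limma; 0.00297 to 0.0551 over the alternatives). Mmp7 was also lower there.

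The plasminogen system, whose product plasmin can activate proMMPs, had 6 of 12 measured genes lower and 2 higher in Ezh2 null than in control, beside 20.5% and 36.1% of all genes. In either direction 8 were thus called, beside 56.6% of all genes. The median log2 fold change was -0.45, and -0.64 with median-ratio scaling. Plau, the urokinase activator, had 227 and 222 RPKM in control and 14.5 and 14.6 in Ezh2 null (log2 fold change -3.86 ± 0.13, limma, adjusted p = 3.88e-08). The inhibitor Serpine2 rose by 1.84 on the log2 scale with Ezh2 loss and fell by 1.04 with Setd2 loss, where it was the 1 gene of this list called (limma, adjusted p = 0.00937). The latter call ended without either control library (adjusted p = 0.132 and 0.105 in limma).

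Among 9 measured ADAM and ADAMTS proteases, relatives of the MMPs, 4 were lower and 2 higher in Ezh2 null, beside 20.5% and 36.1% of all genes. Calls in either direction were near the 56.6% of all genes called. The median log2 fold change was -0.18, and -0.32 with quantile normalization and -0.35 with median-ratio scaling. Adam12 had 17.4 and 17.9 RPKM in control and 0.0984 and 0.129 in Ezh2 null (log2 fold change -4.07 ± 0.12, limma, adjusted p = 1.73e-08), and it passed the filter only through control and Setd2 null. Adam8 had 253 and 294 RPKM in control and 23.4 and 28.7 in Ezh2 null (log2 fold change -3.35 ± 0.18, limma, adjusted p = 4.23e-07). Both are membrane-anchored proteases that can shed surface proteins. Of 17 measured AP-1, ETS, RUNX and NF-kB factors, families known to act at MMP promoters, 7 were lower and 2 higher, beside 20.5% and 36.1% of all genes. Calls in either direction were again near the share of all genes called, 56.6%. The median was -0.08, and -0.23 with quantile normalization and -0.26 with median-ratio scaling. Jun had 111 and 124 RPKM in control and 38.1 and 47.4 in Ezh2 null (log2 fold change -1.44 ± 0.18, limma, adjusted p = 0.000108). Jund went the other way, with 40.1 and 43.7 RPKM in control and 120 and 131 in Ezh2 null (log2 fold change 1.56 ± 0.13, limma, adjusted p = 7.56e-06). Ets1 fell by 1.71 and Runx1 by 1.23 on the log2 scale. The part of these factors in the member levels was not tested. In K735R against wild type, edgeR called no gene of these 5 lists, with 10 at an unadjusted p under 0.05, beside 9.24% of all genes. In the order given here, 17, 14, 13, 14 and 19 genes of the lists were tested. DESeq2 called 1 plasminogen gene as higher and 2 ADAM or ADAMTS genes as lower, beside 285 of all genes.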

How the data were processed

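RNA sequencing of 12 libraries in 6 groups was used. The deposited values of the first 8 libraries are RPKM, per the file headers, and those of the other 4 are whole-number counts per gene, taken as the authors' raw counts from the values. The build is mm10, per the submitters' processing notes, which list Bowtie and RSEM for each RNA library, and also BWA and SICER for the first 8, with no version. Whether counting used strand is not given in the sources used here.

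RPKM values were tested as log2(RPKM + 1) with limma 3.58.1 (R 4.3.3; trended, robust), with the 4 groups in 1 model and genes at a mean of at least 1 RPKM. Counts were tested with edgeR 4.0.16 (quasi-likelihood, robust, TMM, filterByExpr). For edgeR the value after ± is the size of the log2 fold change divided by the square root of the F statistic. It is thus derived from the test and not a separately estimated SE. P-values were two-sided, adjusted by Benjamini-Hochberg over all genes tested and called at 0.05. Each gene's RPKM values are whole multiples of 1 read, within 0.01 reads for 99.97% of 13748 genes. The whole reads were used in edgeR as an alternative chosen after seeing the data, where it called 7497 genes in Ezh2 null against control. The report gives the range of library totals, and intervals on read ratios are exact and cover counting error only. The scripts were tested on simulated data.

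The members and lists were chosen with earlier results of these data known. Named are the 10 members, up to 4 genes per list and comparison by the smallest p, the 3 nearest genes of each member, Setd2, Ezh2 and the markers. Timp4, Mmp15 and the other genes of the cluster were named as well. Symbols that spreadsheet software had turned into dates, 27 in the RPKM table and 19 in the count table, were named from Entrez identifiers. The labels do not say that replicate numbers pair libraries. Deviations from the group means correlated by 0.933 between same-numbered libraries of Ezh2 null and double null. The other pairs of the first 4 groups correlated by 0.105 to 0.358, and the other 2 groups by 0.160. Values with the replicate number as a block are therefore given where they change a call.

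Alternatives were a pseudocount of 0.1, another filter on low values (none, or a mean of 5 RPKM or 10 counts), scaling by quantiles or median ratios, a fit on only the groups compared, the replicate block and each library left out. For counts, DESeq2 1.42.0, limma on log2 CPM and library totals without TMM factors were added. The further allele that all groups carry, and 1 gene of the lists, are not reported here by name.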

Additional observations from a re-analysis of the deposited data

Results flagged for a closer look

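For 3 genes the effect of Ezh2 loss differed between the 2 Setd2 backgrounds by the interaction term of limma. Each difference is the log2 fold change with Setd2 deleted minus that with Setd2 intact. For Timp1 it was -1.79, from 89.98 to 20.9 mean RPKM with Setd2 intact and from 126 to 7.75 with Setd2 deleted. For Mmp7 it was -1.02, from 963 to 1510 mean RPKM with Setd2 intact and from 972 to 750 with Setd2 deleted. For Mmp13 it was -1.27, from 26.6 to 0.0146 mean RPKM with Setd2 intact and from 68.6 to 0.0595 with Setd2 deleted. The first of these held in every alternative run, and the other 2 did not.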

How the results depend on the processing

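With 2 libraries per group, few reads for some members in the libraries with Ezh2 deleted (Mmp13 at 2 to 9 reads) and unlike Ezh2 wild-type libraries, small differences could not be resolved. Of the members called, the count moved by over 1.5 times in 4 fits: to 2 in Setd2 null against control without Setd2 null replicate 2, and in K735R against wild type to 3 with DESeq2 and over a range of 0 to 7 when each library was left out. Genes called over the whole table moved more. In Setd2 null against control, 121 became 67 with quantile normalization, 67 with no filter, 62 at a mean of at least 5 RPKM, 231 with the replicate block, 42 with only the groups compared, and 24 to 128 when each library was left out. In double null against Ezh2 null, 736 became 465 at a mean of at least 5 RPKM, 421 with only the groups compared and 342 to 457 when each library was left out. In the interaction, 294 became 146 at a mean of at least 5 RPKM, 469 with the replicate block and 143 to 276 when each library was left out. In K735R against wild type, 1 became 4 with the replicate block, 285 with DESeq2, 2 with limma on log2 CPM and 0 to 1595 when each library was left out. The cause was not tested, except that fits with fewer libraries or genes have less data by construction. The replicate block changed no other call on a member than those given in the report.

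Signs turned for member differences that were not called as reported, and for the called interaction of Mmp13. With edgeR on recovered reads, the log2 value was 0.10 for Mmp3 in Setd2 null against control, and in the interaction 0.58 for Mmp13 and -0.038 for Timp3. With quantile normalization, Mmp7 in Setd2 null against control was at -0.080. When each library was left out, the log2 values in Setd2 null against control ran from -0.072 to 0.11 for Mmp2, -0.62 to 0.54 for Mmp3, -0.087 to 0.11 for Mmp7 and -0.41 to 0.11 for Timp2. They ran from -0.15 to 0.14 for Timp2 in Ezh2 null against control and from -0.32 to 0.016 for Mmp10 in double null against Ezh2 null. In the interaction they ran from -0.70 to 0.46 for Mmp3 and -0.050 to 0.27 for Timp3, and in K735R against wild type from -0.12 to 0.43 for Mmp14 and -0.57 to 0.024 for Timp2. Of the other alternatives for members, 759 kept direction and side of the threshold.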
